A study of Mus musculus with 2 samples.

Results

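The Meg3-Rtl1 miRNAs are 10 microRNA (miRNA) genes that lie in a row on mouse chromosome 12, from Mir770 inside the noncoding gene Meg3 to Mir434 opposite the protein-coding gene Rtl1. They are Mir770, Mir673, Mir493, Mir337, Mir540, Mir665, Mir431, Mir433, Mir127 and Mir434. These were chosen by name from the 1973 miRNA genes counted, and all 10 had a row in both count tables. Mir3070a and Mir3070b, which lie among them on the same strand, were not chosen. Small RNA was sequenced from whole limbs of healthy B6NCrl mouse embryos at embryonic day 15.5, as 2 biological replicates of 1 group. Replicate 1 pooled the limbs of 78 embryos and replicate 2 those of 62 embryos, with males and females in each pool and fragments under 30 nt kept. No mutation, treatment, second tissue or second stage was part of the series, so levels are described and the pools are compared with each other.

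The genes belong to the Dlk1-Dio3 imprinted domain, in which the copies inherited from the 2 parents are used differently. The protein-coding genes Dlk1, Rtl1 and Dio3 are expressed mainly from the paternal chromosome. The noncoding RNAs Meg3, anti-Rtl1, Rian and Mirg, with the miRNAs cut from them, come from the maternal one. Anti-Rtl1 is transcribed through the Rtl1 gene on the other strand, so its miRNAs pair with Rtl1 messenger RNA along their whole length and can cut it, as is known in the mouse. RTL1 is a retrotransposon-derived protein needed in the placenta and in fetal muscle. The allele of origin was not measured here.

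On mm10 all 10 genes lie on the plus strand, within 30.9 kb. Mir770 (ENSMUSG00000076451.1, chr12:109563692-109563785) overlaps an annotated exon of Meg3, a long noncoding RNA gene of 30.7 kb. In the gap between Meg3 and Rtl1 lie 5 of the 10 genes. Mir673 (ENSMUSG00000076316.1) begins 31.0 kb and Mir493 (ENSMUSG00000077025.2) 39.2 kb after the annotated start of Meg3, and neither overlaps another gene. Mir337, Mir540 and Mir665 follow together within 0.619 kb, with 194 bases between the first and the second and 167 bases between the second and the third. Mir337 (ENSMUSG00000065526.3) has the annotated Mir3544 inside it on the minus strand.

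The other 4 genes lie opposite Rtl1, within 4.15 kb. They are Mir431 (ENSMUSG00000070080.1, chr12:109590447-109590537), Mir433 (ENSMUSG00000070072.1), Mir127 (ENSMUSG00000070076.1, chr12:109592846-109592915) and Mir434 (ENSMUSG00000070133.1). Each overlaps the coding part of the Rtl1 exon, which runs on the minus strand. Between Mir434 and Mir379, the first gene of the larger Mir379 to Mir410 group of the same domain, lie 114 kb.

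**Figure D1:**
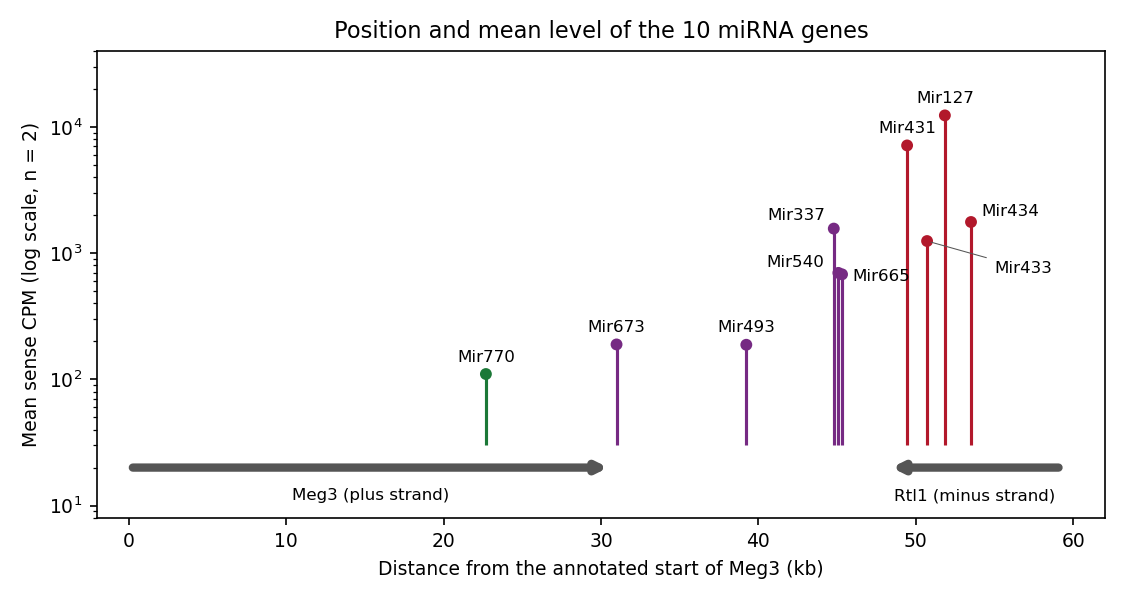
The horizontal axis gives the distance from the annotated start of Meg3 in kb, and the vertical axis the mean level of each of the 10 miRNA genes as CPM (sense counts scaled to a library total of 1000000) on a log scale (n = 2). Stems mark the genes and are green inside Meg3, purple between Meg3 and Rtl1 and red opposite Rtl1, and grey arrows show Meg3 and Rtl1 with their direction. Mir127 and Mir431, both opposite Rtl1, stand highest, and Mir770 inside Meg3 lowest.

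The mature sequences of the 4 miRNAs opposite Rtl1 are shown because they carry the pairing with Rtl1 messenger RNA. They are RefSeq sequences on GRCm38.p6, the assembly of mm10, written 5′ to 3′ from the plus strand of chromosome 12. Capitals mark the seed, bases 2 to 8, with which a miRNA chiefly recognises its targets.
mmu-miR-431-5p: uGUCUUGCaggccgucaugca
mmu-miR-431-3p: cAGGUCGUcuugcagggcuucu
mmu-miR-433-5p: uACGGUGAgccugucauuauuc
mmu-miR-433-3p: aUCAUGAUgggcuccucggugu
mmu-miR-127-5p: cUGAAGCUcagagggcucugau
mmu-miR-127-3p: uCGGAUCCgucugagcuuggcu
mmu-miR-434-5p: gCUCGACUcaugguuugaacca
mmu-miR-434-3p: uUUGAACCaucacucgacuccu

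All 8 of these sequences were complementary to the Rtl1 transcript over their whole length. All 8 sites lay in its coding sequence, which spans positions 148 to 5379 of 6358. Both follow from the place of these genes opposite the coding part of the Rtl1 exon. The site of mmu-miR-127-3p, at positions 2642 to 2663 of the transcript, reads as follows, with the bases opposite the seed in capitals.
Rtl1 site of mmu-miR-127-3p: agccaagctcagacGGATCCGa

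For the 12 mature sequences of the 6 genes outside Rtl1, the longest stretch complementary to the Rtl1 transcript was 7 to 11 bases. How long a stretch unrelated sequences would share with it was not tested. The 5p and 3p arms of Mir431 both hold gucuugcagg, a stretch of 10 bases, and those of Mir434 both hold uuugaacca, a stretch of 9. Mir337 and Mir431 also share 9 bases, cgucaugca, between their 5p arms. The 20 mature sequences of the 10 genes had 20 distinct seeds. Elsewhere among 1738 mouse mature sequences, the seed of mmu-miR-673-5p recurred in mmu-miR-6985-3p and that of mmu-miR-540-3p in mmu-miR-6915-5p, and the other 18 recurred in no other gene.

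The hairpin of Mir127, the most counted of the 10 genes, is printed with both mature arms in capitals, because the counts are per hairpin gene and do not separate the arms.
Mir127 hairpin: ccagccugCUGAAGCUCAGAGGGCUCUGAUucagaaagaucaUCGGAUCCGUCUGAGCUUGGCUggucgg

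Hairpins ranged in length from 67 bases (Mir540) to 124 bases (Mir433) and in G and C content from 45.7% (Mir434) to 70.2% (Mir770). Their predicted folding energy ran from -61.9 kcal/mol per 100 nt for Mir770 to -36.1 for Mir433. No hairpin of the 10 shared a stretch of 20 bases with another mouse hairpin in RefSeq. Copies elsewhere in the genome, whose reads would have entered no gene, were not searched.

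The libraries held 4263630 sense counts over miRNA genes in replicate 1 and 5151214 in replicate 2. Levels are sense counts divided by that total and multiplied by 1000000. Limb tissue was checked by its own markers. Cartilage genes (Mir140, Mir455) held 4.76% and 4.56% of the counts of replicates 1 and 2, and epidermal genes (Mir203, Mir205) 8.34% and 9.40%. The Hox cluster genes Mir196b, Mir10a, Mir10b and Mir615 held 4.82% and 5.81%, and other Hox cluster miRNA genes were not in that list. Muscle genes (Mir206, Mir133b, Mir499, Mir208b) held 1.15% and 0.499%, a 2.32-fold difference. Liver, erythroid and leukocyte markers each held under 0.05%. The 4 listed neuronal genes with a row (Mir124a-1, Mir124a-2, Mir124a-3, Mir9-2) had no counts, which allows up to 3 a gene. They belong to families of near-identical copies whose common reads are not counted. Mir9-3, a further Mir9 copy outside the marker list, had 9 counts in replicate 1 and 7 in replicate 2. Mir9-1 and Mir142 had no row. In whole limbs, fewer cells of a type and less RNA per cell cannot be told apart.

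The 10 genes together took 2.97% of the sense counts of replicate 1 (126646 counts, Wilson 95% interval 2.95 to 2.99). In replicate 2 their share was 2.20% (113304 counts, 2.19 to 2.21). The intervals cover counting error only. Each of the 10 genes was detected, which needed 10 or more sense counts in each library, and each also passed a minimum of 100. Mir3070a and Mir3070b, which lie among the 10 but were not chosen, were not detected. Of the 340 miRNA genes detected, 9 of the 10 lay above the median level of 167 CPM, 5 were among the 100 most counted and 2 among the 30 most counted.

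Most of the counts came from the genes opposite Rtl1. These 4 held 2.58% of the library in replicate 1 and 1.90% in replicate 2. Those 5 of the 10 that lie between Meg3 and Rtl1 held 0.375% and 0.287%, and Mir770 inside Meg3 0.0120% and 0.0100%. Mir127 and Mir431 alone made up 75.3% of the counts of the 10 genes in replicate 1 and 74.9% in replicate 2.

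Mir127, whose loss disturbs the labyrinth layer of the mouse placenta, had 60340 counts (14152 CPM) in replicate 1 and 53878 counts (10459 CPM) in replicate 2. Its mean was 12306 ± 2611 CPM (SD, n = 2), rank 22 of all genes. Mir100 (12651 CPM) stood directly above it and Mir351 (12025 CPM) directly below, both within its spread. Mir431, known in mouse muscle as a repressor of Pax7, the transcription factor of muscle stem cells, had 34999 counts (8209 CPM) in replicate 1 and 31009 counts (6020 CPM) in replicate 2. Its mean was 7114 ± 1548 CPM, rank 29. The levels of Mir127 and Mir431 did not overlap between the genes in the 2 libraries, and the ratio of their means was 1.73.

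Mir434, in which the stretch common to both arms ends the 5p arm and begins the 3p arm, where it spans the seed, had 8435 counts (1978 CPM) in replicate 1 and 7956 counts (1544 CPM) in replicate 2, a mean of 1761 ± 307 CPM. Mir433, reported to repress the bone regulator Runx2 in a mouse mesenchymal cell line, had 6361 counts (1492 CPM) and 5140 counts (998 CPM) in replicates 1 and 2, a mean of 1245 ± 349 CPM (SD, n = 2 for both). Within the 4.15 kb opposite Rtl1, the highest gene was thus 9.89-fold above the lowest. Mir431 was 4.04-fold above Mir434, the next gene down in level.

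Of the genes between Meg3 and Rtl1, Mir337 was the most counted, with 7265 counts (1704 CPM) in replicate 1 and 7313 counts (1420 CPM) in replicate 2. Its mean of 1562 ± 201 CPM (SD, n = 2) lay between those of Mir434 and Mir433, and the replicate ranges of Mir337 overlapped with those of both. Mir540 and Mir665, which follow it at short distance, were lower and close to each other. Mir540 had 3393 counts (796 CPM) and 3076 counts (597 CPM) in replicates 1 and 2, a mean of 696 ± 140 CPM. Mir665 had 3406 counts (799 CPM) and 2873 counts (558 CPM), a mean of 678 ± 170 CPM. Their replicate ranges overlapped.

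Of the 10 genes, those nearest to Meg3 were the least counted. Mir673 had 981 counts (230 CPM) in replicate 1 and 761 counts (148 CPM) in replicate 2, a mean of 189 ± 58.2 CPM (SD, n = 2). Mir493 had 954 counts (224 CPM) and 782 counts (152 CPM), a mean of 188 ± 50.9 CPM, and was not separated from Mir673. Mir770, the member that overlaps an exon of Meg3 itself, had 512 counts (120 CPM) and 516 counts (100.2 CPM), a mean of 110 ± 14.1 CPM. Its level lay below those of Mir673 and Mir493 in both libraries.

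From highest to lowest the order was Mir127, Mir431, Mir434, Mir337, Mir433, Mir540, Mir665, Mir673, Mir493 and Mir770. Neighbours in this order whose replicate ranges overlapped were Mir434 with Mir337, Mir337 with Mir433, Mir540 with Mir665, and Mir673 with Mir493. Within each library Mir434 lay above Mir337 and Mir337 above Mir433, so these ranges overlapped through the shift between the libraries. Mir540 and Mir665 changed places between the libraries, as did Mir673 and Mir493. Mir127 was 112-fold above Mir770 by mean CPM, 118-fold in replicate 1 and 104-fold in replicate 2. The order holds for counted reads, and how evenly the library preparation captured each sequence was not tested.

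**Figure D2:**
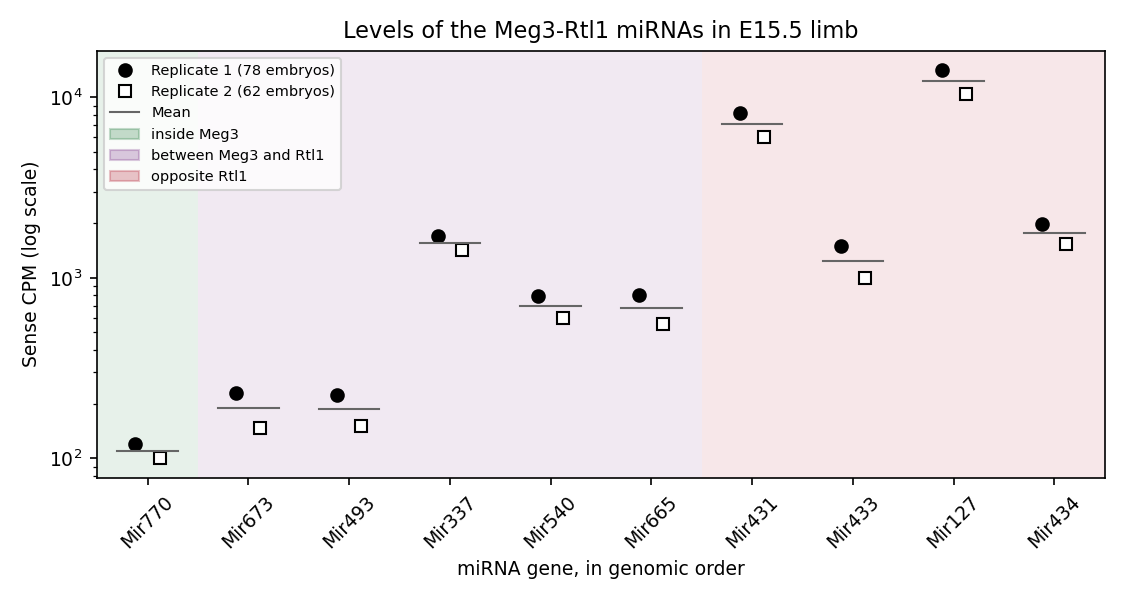
Sense CPM on a log scale for each of the 10 genes in genomic order, with replicate 1 as filled circles, replicate 2 as open squares and the mean as a grey line; shading marks the position relative to Meg3 and Rtl1. Replicate 1 lies above replicate 2 for all 10 genes, and the levels range from about 110 CPM for Mir770 to 12306 CPM for Mir127.

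The 2 pools of limbs differed in the level of the whole group. All 10 genes were higher in replicate 1, by 1.20-fold (Mir770) to 1.56-fold (Mir673). The log2 ratio of CPM, replicate 1 over replicate 2, had a median of 0.44 over the 10 genes, beside -0.02 over all 340 detected genes. Each gene was tested against counting noise with an exact two-sided binomial test given the library totals, with Benjamini-Hochberg adjustment over all 340 genes, and a call needs an adjusted p under 0.05. All 10 were called higher in replicate 1, where the background was 25.6% of the 340 genes called higher and 25.3% called lower. This test compares 2 libraries and not conditions, and it leaves out the spread between pools.

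The most weakly separated gene was Mir770, with a log2 ratio of 0.26 (exact 95% interval 0.08 to 0.44, adjusted p = 0.00824, exact binomial test). Mir337, with many more counts, had the same ratio of 0.26 (0.22 to 0.31). Mir434 had 0.36 (0.31 to 0.40) and Mir540 0.41 (0.34 to 0.49). The ratios of the most counted genes were close together, 0.44 (0.42 to 0.45) for Mir127 and 0.45 (0.43 to 0.47) for Mir431. Mir665 had 0.52 (0.45 to 0.59), Mir493 0.56 (0.42 to 0.70), Mir433 0.58 (0.53 to 0.63) and Mir673 0.64 (0.50 to 0.78). The intervals of Mir433 and Mir337 lay apart, so the members did not all shift by one factor within counting error.

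The calls did not hold in a test that adds the spread over all genes to counting noise. An edgeR exact test used the dispersion estimated from the replicates as 1 group, a biological coefficient of variation of 14.7%. This exact test called 0 of the 10 genes (adjusted p = 1 for each in the edgeR exact test). Without adjustment 1 gene, Mir673, was under 0.05 (p = 0.040, edgeR exact test). That test called 0.882% of the 340 genes higher in replicate 1 and 0 lower, and the 3 called were the muscle genes Mir206, Mir499 and Mir208b. The alternative was chosen after the data had been seen, and its dispersion comes from the difference between the same 2 libraries, so the loss of the calls is no independent evidence that the levels were alike. The 10 log2 ratios ran from 0.26 to 0.64. The SD of the log2 ratio over all 340 detected genes, these 10 included, was 0.38.

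**Figure D3:**
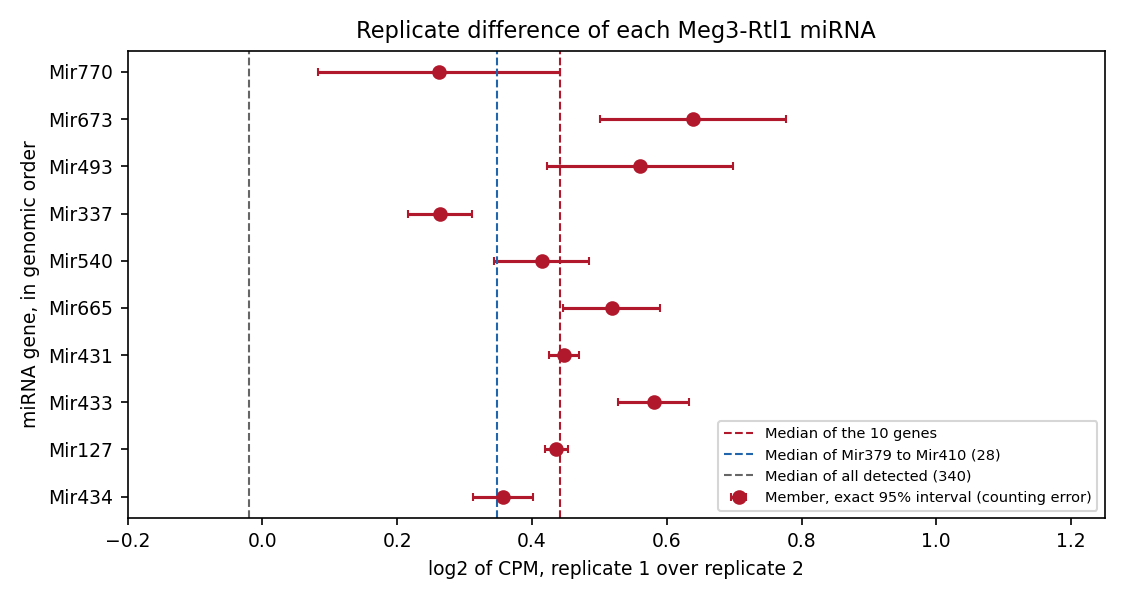
The log2 ratio of CPM, replicate 1 over replicate 2, of each gene in genomic order, with exact 95% intervals that cover counting error only. Dashed lines give the median of the 10 genes (0.44), of the Mir379 to Mir410 genes (0.35) and of all 340 detected genes (-0.02); no interval reaches 0.

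While the level of the group differed, its composition was close in the 2 pools. Mir127 made up 47.6% of the counts of the 10 genes in replicate 1 (Wilson 95% interval 47.4 to 47.9), and again 47.6% in replicate 2 (47.3 to 47.8). Mir431 made up 27.6% and 27.4%, and Mir540 2.68% and 2.71%. Shares whose intervals did not overlap were found for 4 genes. Mir337 took 5.74% in replicate 1 and 6.45% in replicate 2, and Mir434 6.66% and 7.02%. Mir433 took 5.02% and 4.54%, and Mir673 0.775% and 0.672%. The same count was not made for other sets of genes, so 4 of 10 has no background. By library share, a different measure, the exact binomial test called 50.9% of the 340 detected genes in either direction. The SD of the log2 ratio among the 10 genes was 0.13, beside 0.38 among all detected genes and 0.31 among the 247 genes with at least 100 counts in both replicates.

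The Mir379 to Mir410 genes, cut from the same domain further downstream, are the nearest comparison. On the plus strand 33 of them had a row, of which 28 were detected, with a median level of 378 CPM beside 971 CPM for the 10 Meg3-Rtl1 genes. The 3 most counted were Mir411 (16358 and 12946 CPM in replicates 1 and 2), Mir487b (13186 and 9734 CPM) and Mir379 (7175 and 5947 CPM). All 28 were higher in replicate 1 and 26 were called, with a median log2 ratio of 0.35 and an SD of 0.16. The difference between the groups was not tested, since genes of one transcription domain are not replicates.

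Of all plus-strand miRNA genes from the start of Meg3 to the end of Mirg, 53 had a row. The 10 genes held 29.3% of the counts of these 53 in replicate 1 (Wilson 95% interval 29.2 to 29.4). Their share of the 53 was 28.3% in replicate 2 (28.1 to 28.4). These are shares of sense counts, and rows annotated on the minus strand are outside them. Among those rows are Mir3071 and Mir299b, the latter with 11782 and 11520 antisense counts in replicates 1 and 2. Of these 53, 42 were detected and 41 were higher in replicate 1. The exception was Mir370, which lies between the Meg3-Rtl1 and the Mir379 to Mir410 genes, with 2132 counts in replicate 1 and 2721 in replicate 2, a log2 ratio of -0.08 that was not called. Of the 298 detected genes not annotated as plus-strand genes of the domain, 49 were called higher in replicate 1 and 86 lower, with a median log2 ratio of -0.06. These 298 include Mir3071, which was called higher, and Mir299b, both within the domain and annotated on the minus strand. The strand on which Mir3071 was counted is not known, so its place outside the 53 follows the annotation alone. The muscle markers moved the same way as the Meg3-Rtl1 genes, with a median log2 ratio of 1.27 over 4 of 4 genes. Cartilage markers had a median of 0.13, Hox markers -0.15, epidermal markers -0.14 and the endothelial Mir126a -0.08. The part of muscle content in the difference between the pools was not tested.

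**Figure D4:**
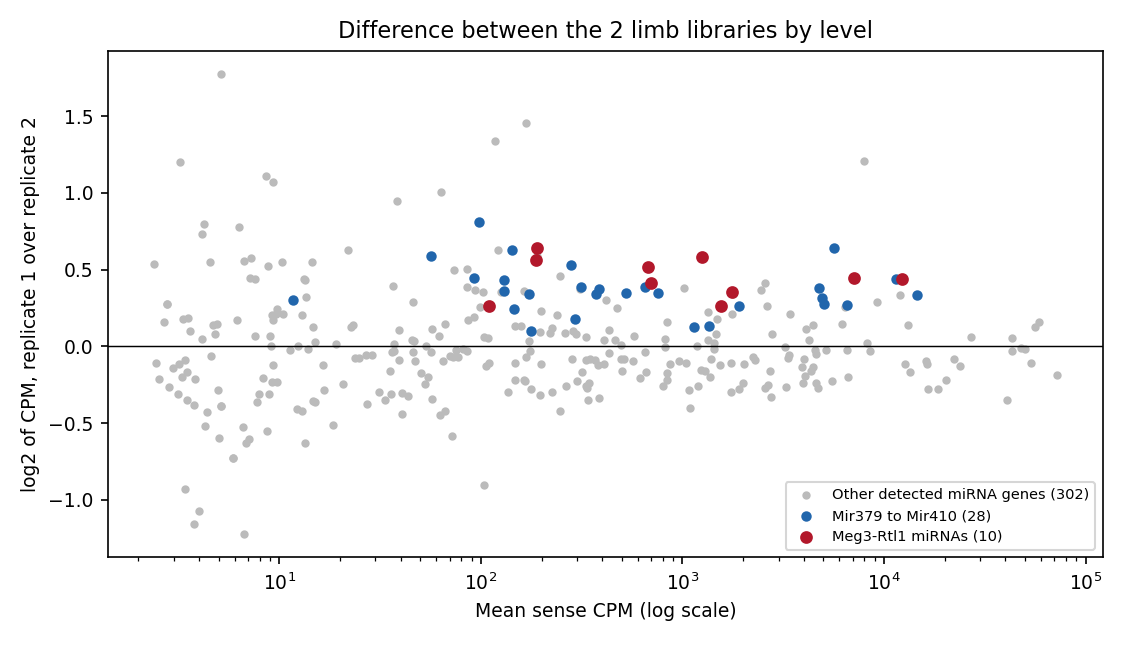
Each point is 1 of the 340 detected miRNA genes, with its mean CPM on a log horizontal axis and its log2 ratio, replicate 1 over replicate 2, on the vertical axis. The 10 Meg3-Rtl1 genes (red) and the 28 Mir379 to Mir410 genes (blue) all lie above 0, at levels from about 12 to 14652 CPM, while the 302 other genes (grey) lie on both sides.

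Other annotated miRNA genes lie among and beside the 10. Mir3070a, between Mir665 and Mir431, had 11 counts in replicate 1 and 3 in replicate 2. Mir3070b beside it and Mir432, the next gene after Mir434 opposite Rtl1, had 0 in both. A count of 0 allows up to 3 counts, equal to 0.704 CPM in the first library and to 0.582 CPM in the second. Mir136, the last miRNA gene opposite Rtl1, had no row of its own. The row that lies over it, named Mir3071 on the minus strand in the annotation used for symbols, had 2202 sense counts (516 CPM) in replicate 1 and 2241 (435 CPM) in replicate 2. Its identifier had another version in the count tables than in that annotation, so the strand it was counted on is not known. Its reads were almost all sense, with 6 and 4 antisense counts in replicates 1 and 2. Whether the sense strand is that of Mir136 or of Mir3071 cannot be told. Both mature sequences of Mir136 were complementary to the Rtl1 coding sequence over their whole length.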

How the data were processed

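Small RNA from pooled limbs was sequenced in 2 biological replicates. The deposited tables hold whole-number read counts per miRNA gene (irrespective of strand, sense and antisense, as read from the values), made by the authors on mm10 with annotation M4, per the deposited README. The aligner, counter and trimming are not given in the sources used here. Multi-aligned reads (29.4% of reads in replicate 1 and 29.7% in replicate 2) are in no gene, and summary lines entered no total. Molecular identifiers are not named in the sources used here.

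Symbols and positions came from GENCODE M21, whose GRCm38 assembly is mm10. This release matched 1894 of 1973 identifiers by their unversioned form. For Mir337, Mir540 and Mir127 the identifier version differs, so the counted bounds may too. Sequences came from RefSeq (10 of 10 genes matched), and hairpins were folded with RNAfold 2.7.2.

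A group of 1 allows no quasi-likelihood test, so scipy 1.17.1 gave exact binomial tests, checked on simulated counts, and edgeR 4.0.16 in R 4.3.3 an added test. The simulated counts held counting noise only, so that check does not cover the spread between pools. No change was simulated in Mir127 or Mir431, which lay above the levels used. Alternatives were edgeR TMM and DESeq2 1.42.0 scaling, strand, totals, count minimums and single replicates. All 10 genes are named. Others named are neighbours within 5 kb with a count, the 3 highest Mir379 to Mir410 genes, and the genes ranked beside Mir127. Mir3070b, Mir432, Mir136, Mir370, Mir299b and Mir9-3 were added after their values were seen. Members and lists were chosen with earlier results of these data known. That the replicates are separate pools comes from the labels.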

Additional observations from a re-analysis of the deposited data

Results flagged for a closer look

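Among the 10 genes and their neighbours within 5 kb, reads other than the sense counts of the 10 genes exceeded in both replicates the 3 counts that a count of 0 allows at 2 loci. Mir337 had 8 antisense counts in replicate 1 and 9 in replicate 2. These were 0.110% of the reads on both strands in replicate 1 (Wilson 95% interval 0.0557 to 0.217), against 0.123% in replicate 2 (0.0647 to 0.233). Mir3544 is annotated there on the minus strand and had no row. The other 9 genes had at most 1 antisense count in a library. The row named Mir3071, over Mir136, had 2202 and 2241 sense counts in replicates 1 and 2, and 6 and 4 antisense counts. No group held the 4 or more samples needed to look for a sample that stands apart.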

How the results depend on the processing

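The share of the library held by the 10 genes, 2.58% by mean, became 1.50% when all mapped reads formed the total, which adds reads to the denominator alone. It was 2.20 to 2.97% with either replicate alone, and the share of the sense counts of the 53 plus-strand domain genes was 28.3 to 29.3%. The number of genes called higher in replicate 1 stayed at 10 in the 7 alternatives planned and was 0 with the added edgeR exact test, whose dispersion was estimated from the same 2 libraries. The median log2 ratio was 0.42 to 0.44 in those 7 alternatives, and all 10 genes kept their direction in each. The count minimums could not change a ratio of the 10 genes, since all passed them. Another total or scaling shifts all ratios by one constant, here at most 0.017 in size. The median over all detected genes shifted by at most 0.03. No paired analysis was possible because the series has 1 group. The level of each of the 10 genes moved by more than its SD when all mapped reads formed the total, and by less than its SD in the other 6 alternatives for levels. For single replicates among these 6 that was fixed in advance, since 1 of 2 values always lies within 1 SD of their mean. Only 2 replicates stand behind each SD, and the least counted gene, Mir770, had 512 and 516 counts.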
